A study of Mus musculus with 12 samples.

Results

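Gas5, Snhg1, Snhg3, Snhg4, Snhg6, Snhg8, Snhg12, Zfas1, Epb41l4aos and 1110038B12Rik are long noncoding RNAs (lncRNAs) that carry small nucleolar RNAs (snoRNAs) in their introns, and they are counted among the transcripts with a 5′ terminal oligopyrimidine (TOP) start. They were taken by name from the deposited table, as noncoding transcripts of a class whose other members code for ribosomal proteins and translation factors. All 10 were found among the 53351 genes of the table, and all 10 were among the 20240 genes tested, which had a deposited value of at least 1 in at least 3 libraries. They were chosen by name and class, with no threshold on a value, but with the earlier log2 folds of these libraries between Torin1 and DMSO in view. Counts over the 10 are therefore descriptions and not independent evidence.

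The cells were primary neural progenitor cells from wild-type mouse cortex at stage E13.5, kept overnight in a medium with bFGF and EGF. They were given 250 nM Torin1, which inhibits the mTOR kinase, or its solvent DMSO, for 2 h, and every culture then received cycloheximide at 100 ug/ml for 5 min, which holds ribosomes in place on RNA. A share of 10% of each lysate was kept as total mRNA, and RNA from the sucrose gradient fractions with more than 3 ribosomes was collected as polysome mRNA. The labels give 4 groups with 3 biological replicates in each, 12 libraries in all: polysome Torin1, polysome DMSO, total Torin1 and total DMSO. The sources used here do not say whether embryos were pooled or which libraries share a culture.

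TOP transcripts begin with a cytosine followed by a run of pyrimidines at the very 5′ end. When mTOR complex 1 is inhibited, the protein LARP1 binds the capped start of these transcripts, and coding TOP mRNAs leave polysomes. A snoRNA host gene is spliced so that the snoRNA is released from an intron, while the joined exons go to the cytoplasm. There they hold only short reading frames, and several of them, Gas5 the best known, are degraded by nonsense-mediated decay once ribosomes have passed over these frames.

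The annotated start sites of the hosts show how closely they carry the class's mark, and they are printed here for that reason. RefSeq's promoter table for GRCm38.p6 held 7 of the 10 hosts. The lines give 20 bases before and 30 bases from the annotated start, 5′ to 3′ on the transcript's strand, and the capitals mark the longest run of C and T that begins with C within 10 bases of that start. Where a host has more than one annotated start, the one with the longer run, or with equal runs the nearer one, is shown. Snhg4, Snhg6 and Epb41l4aos were not matched.
1110038B12Rik, chr17:34952439-34952488, minus strand: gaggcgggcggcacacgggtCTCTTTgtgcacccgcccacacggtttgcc
Snhg8, chr3:123508307-123508356, minus strand: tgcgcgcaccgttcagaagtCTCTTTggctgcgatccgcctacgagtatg
Gas5, chr1:161035146-161035195, plus strand: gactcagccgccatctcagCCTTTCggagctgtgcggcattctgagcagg
Snhg12, chr4:132308658-132308707, plus strand: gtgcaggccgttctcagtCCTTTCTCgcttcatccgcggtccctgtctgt
Snhg3, chr4:132353657-132353706, minus strand: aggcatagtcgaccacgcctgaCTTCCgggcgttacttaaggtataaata
Snhg1, chr19:8723467-8723516, plus strand: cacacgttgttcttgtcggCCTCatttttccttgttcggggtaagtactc
Zfas1, chr2:167062914-167062963, plus strand: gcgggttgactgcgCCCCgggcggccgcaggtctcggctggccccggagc

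For comparison, Rps27, Ybx1 and Tpt1, among the coding TOP genes with the largest falls in polysome association, are shown in the same way with 20 bases before and 10 bases from the start. Rps27 has a long run over its start, whereas the runs of Ybx1 and Tpt1 are of 3 and 2 bases. Rps19, which fell most, has 3 annotated starts, each with a G and no run at the start. The last of these starts has a run of 7 pyrimidines that begins at base 7.
Rps27, chr3:90213639-90213668, minus strand: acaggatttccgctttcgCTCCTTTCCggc
Ybx1, chr4:119294504-119294533, minus strand: ggggcttatcccgcccgtCCCgccattctc
Tpt1, chr14:75845236-75845265, plus strand: ttcacgtcaccgctgacgacagttCCgggg

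A run of at least 5 pyrimidines that began with C lay within 10 bases of the start in 5 of the 7 hosts (71.4%), against 34.4% of the 27025 genes of the promoter table and 60.3% of the 58 ribosomal protein genes matched there. The share was 50.0% of 12 other snoRNA host lncRNAs and 62.5% of 8 lncRNAs that host no snoRNA, so such a run is not particular to the hosts. Only the transcript strand was searched. In 1110038B12Rik, Snhg8 and Gas5 the annotated start base itself was a C followed by at least 4 more pyrimidines, which makes 3 of 7 hosts (42.9%), against 3.0% of all genes, 24.1% of ribosomal protein genes, 8.3% of the other snoRNA host lncRNAs and 25.0% of the lncRNAs that host none. In Snhg12 the run reached over the start but its annotated first base was a T. Snhg1 and Zfas1 had runs of 4 bases, short of that length. 1110038B12Rik and Snhg8 held the same letters, CTCTTT, at the start. 1110038B12Rik and Snhg8, with a run at the start, fell in polysome mRNA, but this did not hold for every host. Of the 3 that fell, Snhg3 has a G at its annotated start and its run only after it. Gas5, with a run at its start, did not fall. Whether the runs bear on the change was not tested. Annotated starts need not be the starts used in these cells, so a match describes these letters and is not a measured TOP start.

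The deposited values are a signal and not read counts, so the depth in reads is unknown. They are given here in ppm of the library total, after a scaling that set the typical gene level with the other libraries, so every value is relative to the rest of its own library. Low values of short genes were higher than those of long genes, as on a scale that divides by length. The column totals of the 12 libraries ranged from 14341674 to 19201406. Summed over 8 markers, neural progenitor genes held 2197 to 2300 ppm in total Torin1 libraries and 2318 to 2376 ppm in total DMSO libraries. Most of that sum was Fabp7, a fatty acid binding protein of radial glia, at 1853 ppm in total Torin1 and 2018 ppm in total DMSO libraries on average. Of the 8 genes, 2 were called higher and 0 lower in total mRNA, with a median log2 fold of 0.21, and 4 higher and 0 lower in polysome mRNA, with a median of 0.22. Summed over 6 markers, neuron genes held 2852 to 2950 ppm in total Torin1 libraries and 2746 to 2806 ppm in total DMSO libraries, so the cultures labelled as progenitors also held neuronal RNA. They held red cell RNA as well: 4 red cell markers averaged 1339 ± 106 ppm in total Torin1 and 1193 ± 41.5 ppm in total DMSO libraries (SD, n = 3 each). The most abundant of them, Hba-a1, averaged 776 ppm in total Torin1 and 702 ppm in total DMSO libraries. The 4 endothelial markers summed to 13.8 to 14.4 ppm in total Torin1 and 9.62 to 10.2 ppm in total DMSO libraries, and the 4 meningeal and mural markers averaged 27.3 ± 2.48 ppm in total Torin1 and 17.6 ± 0.467 ppm in total DMSO libraries (SD, n = 3 each), with 2 of these 4 called higher in each fraction. Most of the endothelial sum was Cldn5, at 8.40 ppm in total Torin1 and 5.47 ppm in total DMSO libraries on average. It was the 1 endothelial marker called in either fraction. Fewer cells of a type and less RNA per cell cannot be told apart in such samples. One total Torin1 library, replicate 2, stood apart in small RNAs, with 2061 ppm of Rn7sk, against 38.2 to 181 ppm in the other total libraries. Whether any of this moved the hosts was not tested.

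On this scale the hosts differed widely in level. In total DMSO mRNA the means ran from 249 ± 14.7 ppm for Gas5, through 173 ± 10.3 ppm for 1110038B12Rik and 143 ± 10.96 ppm for Snhg1, to 17.96 ± 1.79 ppm for Snhg4 and 11.9 ± 2.97 ppm for Snhg6 (SD, n = 3 each). Snhg12, Zfas1, Snhg8, Epb41l4aos and Snhg3 lay between 49.9 and 105 ppm. Gas5 stood above 1110038B12Rik, and that above Snhg1, beyond their SDs, whereas Zfas1 and Snhg8 did not differ beyond theirs. Snhg4 and Snhg6 came close, with 15.9 ppm in the lowest Snhg4 library and 14.9 ppm in the highest Snhg6 library. Without that scaling, the 10 hosts together took 0.0651% ± 0.00679 of polysome Torin1 and 0.0619% ± 0.00646 of polysome DMSO libraries, and 0.118% ± 0.00265 of total Torin1 and 0.109% ± 0.00425 of total DMSO libraries (SD, n = 3 each). With it, their polysome sums took the other order, 654 ± 117 ppm in Torin1 and 748 ± 124 ppm in DMSO libraries, and in neither did the means differ beyond their SDs.

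**Figure D1:**
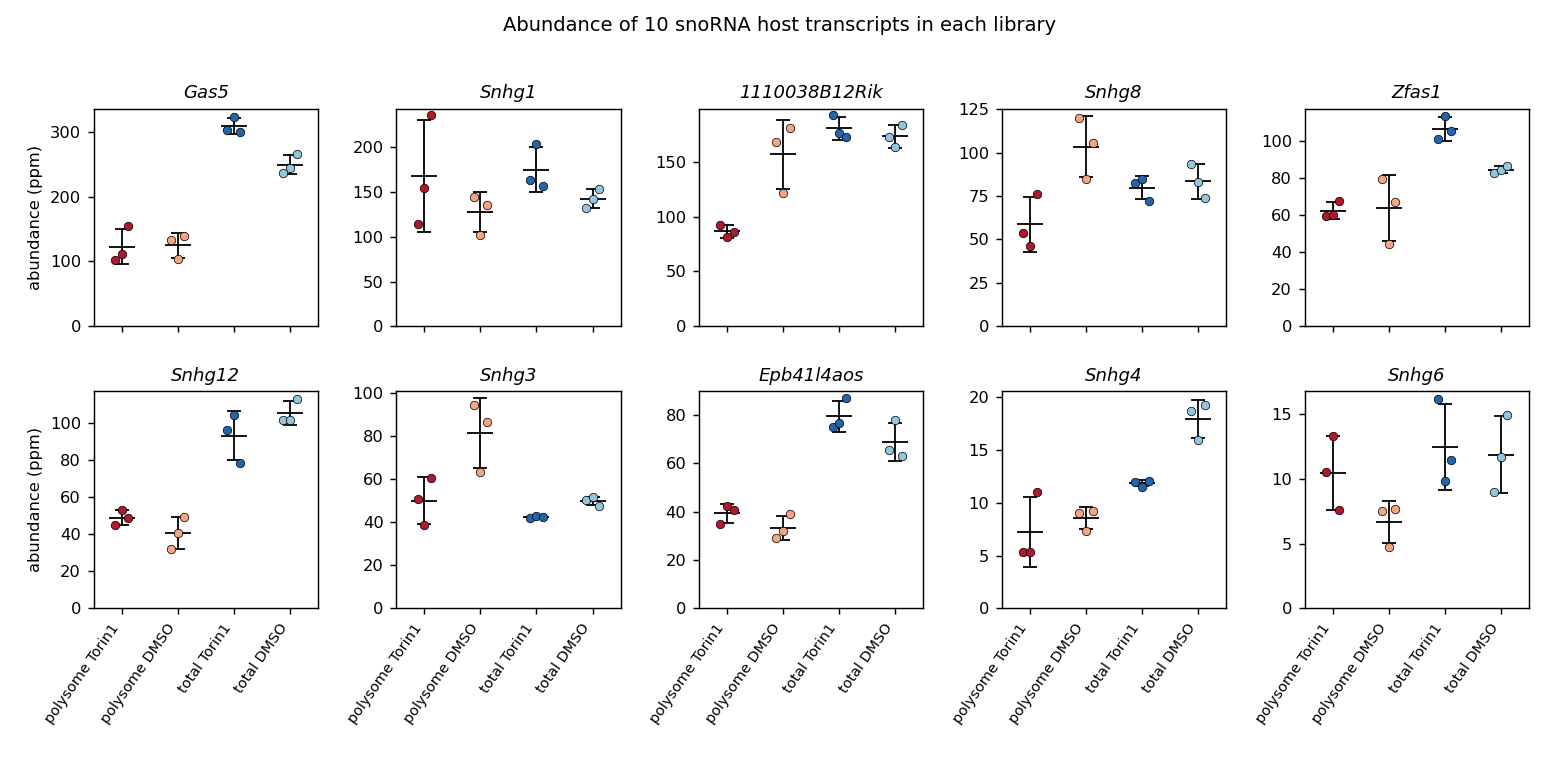
Abundance of each host in ppm (vertical axes, each from 0) in the 12 libraries, with points for libraries, long bars for the mean and error bars for the SD of 3 libraries. Polysome Torin1 lies wholly below polysome DMSO for 1110038B12Rik, Snhg8 and Snhg3, and Gas5 lies below its total level in both polysome groups.

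Total mRNA tells whether the hosts changed in abundance after 2 h of Torin1. Against DMSO, 0 of the 10 hosts rose and 0 fell in the limma fit of all 12 libraries at an adjusted p under 0.05, beside 7.48% of all genes tested (3.32% higher and 4.16% lower). An unadjusted limma p under 0.05 was found for 1 of the 10, beside 4294 of the 20240 genes tested. The median log2 fold of the hosts was 0.06, against 0.00 for all genes. The library values, however, were apart for 5 hosts: all Torin1 libraries lay above all DMSO libraries for 3 and below them for 2, where 33.3% of all genes tested were apart (15.6% above and 17.7% below).

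Gas5, named for its rise in growth-arrested cells, had 303, 324 and 299.8 ppm in total Torin1 libraries, against 237, 245 and 266 ppm in total DMSO libraries. Zfas1, transcribed away from the start of the gene Znfx1, had 100.97, 114 and 105 ppm in total Torin1, against 82.4, 84.3 and 86.5 ppm in total DMSO libraries. Snhg1, a host of many C/D box snoRNAs, had 164, 204 and 157 ppm in total Torin1, against 132, 142 and 154 ppm in total DMSO libraries. In these 3 hosts every Torin1 library was the higher, although the Snhg1 groups nearly touched.

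Snhg4 had 11.96, 11.5 and 12.1 ppm in total Torin1, against 18.7, 15.9 and 19.2 ppm in total DMSO libraries. Snhg3 had 42.2, 42.7 and 42.6 ppm in total Torin1, against 50.3, 51.6 and 47.7 ppm in total DMSO libraries. Both lay below in every Torin1 library. The log2 folds were 0.31 ± 0.14 for Gas5, 0.33 ± 0.16 for Zfas1, 0.29 ± 0.22 for Snhg1, −0.23 ± 0.16 for Snhg3 and −0.59 ± 0.23 for Snhg4 (SE, limma adjusted p = 0.236, 0.26, 0.514, 0.462 and 0.158).

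These calls depended on which libraries set the spread. The hosts varied less between total libraries than between polysome libraries: their median SD on the log2 scale was 0.317 in polysome Torin1 and 0.284 in polysome DMSO, but 0.0997 in each total group. When only the 6 total libraries entered the fit, Gas5 (0.32 ± 0.05, limma adjusted p = 0.00874) and Zfas1 (0.34 ± 0.05, adjusted p = 0.0067) rose, and Snhg4 (−0.59 ± 0.09, adjusted p = 0.00732) and Snhg3 (−0.22 ± 0.05, adjusted p = 0.021) fell. In that fit 14.3% of the genes tested were called (6.22% higher and 8.09% lower). Snhg1 did not pass there either, at 0.29 ± 0.10 with an adjusted p of 0.106.

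Polysome mRNA tells which hosts were found less or more often in the gradient fractions with more than 3 ribosomes, relative to other transcripts. With Torin1, 0 of the 10 hosts rose and 3 fell, beside 10.7% of all genes tested (4.4% higher and 6.27% lower). The 3 were 1110038B12Rik, Snhg8 and Snhg3, and they were also the hosts in which all polysome Torin1 libraries lay below all polysome DMSO libraries, where 13.4% of all genes lay below in this way. The median log2 fold of the 10 hosts was −0.02, against −0.01 for all genes, but the hosts lay far apart on both sides of it. Among 9193 genes with a mean log2 ppm of at least 3, those with a lower fold made up 1.85, 1.89 and 2.74% for 1110038B12Rik, Snhg8 and Snhg3, and 90.0, 92.4 and 98.2% for Snhg12, Snhg1 and Snhg6. In bulk polysome RNA, fewer molecules on polysomes in every cell and fewer cells with such molecules give the same value.

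Among the hosts of C/D box snoRNAs, many of which guide methylation of ribosomal RNA, 1110038B12Rik fell. It is the mouse counterpart of human SNHG32 and holds Snord52. It had 92.6, 81.0 and 85.6 ppm in polysome Torin1, against 168, 122 and 181 ppm in polysome DMSO libraries. The highest Torin1 library lay below the lowest DMSO library, and the log2 fold was −0.84 ± 0.12 (SE, limma adjusted p = 0.0012).

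Gas5 had 102, 112 and 154 ppm in polysome Torin1, against 133, 103 and 139 ppm in polysome DMSO libraries. Snhg1 had 114, 154 and 236 ppm in polysome Torin1, against 144, 103 and 136 ppm in polysome DMSO libraries. For both, the Torin1 libraries spanned a wider range than the DMSO libraries and overlapped them, with log2 folds of −0.04 ± 0.14 and 0.35 ± 0.22 (limma adjusted p = 0.91 and 0.371).

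Zfas1 had 59.3, 59.8 and 67.4 ppm in polysome Torin1, against 79.6, 44.4 and 66.8 ppm in polysome DMSO libraries, with a log2 fold of 0.01 ± 0.16 (limma adjusted p = 0.998). Snhg6, the least abundant host, had 10.5, 13.3 and 7.61 ppm in polysome Torin1, against 7.50, 4.76 and 7.70 ppm in polysome DMSO libraries. Its log2 fold of 0.65 ± 0.27 was the highest of the 10 and did not pass (limma adjusted p = 0.158). The lowest Snhg6 library with Torin1 lay within the range of the DMSO libraries.

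Among the hosts of H/ACA box snoRNAs, many of which guide the isomerisation of uridine in ribosomal RNA, Snhg8 and Snhg3 fell. Snhg8, the host of Snora24, had 53.9, 46.0 and 76.3 ppm in polysome Torin1, against 120.2, 85.0 and 105 ppm in polysome DMSO libraries. Its log2 fold was −0.84 ± 0.17 (SE, limma adjusted p = 0.00974). Snhg3, the host of Snora73a and Snora73b, had 50.7, 38.8 and 60.7 ppm in polysome Torin1, against 94.7, 63.4 and 86.8 ppm in polysome DMSO libraries, and its log2 fold was −0.71 ± 0.16 (SE, limma adjusted p = 0.0143). The Snhg3 groups came close to each other, at 60.7 and 63.4 ppm. The Snhg3 call was lost without polysome DMSO replicate 1 (adjusted p = 0.0639) or replicate 3 (adjusted p = 0.0614), and when only polysome libraries were fitted (adjusted p = 0.0801), a fit that called 4.09% of all genes (2.29% lower). Those of Snhg8 and 1110038B12Rik passed without any single polysome library, with the highest adjusted p at 0.0451 and 0.00789. The Snhg8 call was nevertheless lost when replicate 1 or replicate 2 of all 4 groups was left out (adjusted p = 0.148 and 0.0652). The Snhg3 call was lost in the same way without replicate 1 or replicate 3 (adjusted p = 0.165 and 0.0512). That of 1110038B12Rik passed in all 16 alternatives, with adjusted p up to 0.0423.

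Snhg4, the host of Snora74a, had 5.32, 5.35 and 11.04 ppm in polysome Torin1, against 9.07, 7.36 and 9.23 ppm in polysome DMSO libraries. Only replicate 3 of the Torin1 libraries was not below the DMSO libraries: the log2 fold was −0.32 ± 0.23 with it (limma adjusted p = 0.444) and −0.67 without it (adjusted p = 0.00475). The same library was the highest of its group for 6 of the 10 hosts and held the largest ribosomal protein share of that group, 11.4%, against 10.3% and 9.61% in the other two. Polysome DMSO replicate 2 was the lowest of its group for 8 hosts and held the smallest ribosomal protein share of that group, 17.5%, against 19.7% and 20.0%. Whether this spread moved the calls beyond the values without each library was not tested.

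Snhg12, which holds Snora16a, Snora44, Snora61 and Snord99, had 45.0, 53.3 and 48.8 ppm in polysome Torin1, against 31.8, 40.6 and 49.3 ppm in polysome DMSO libraries. Epb41l4aos, a host on the strand opposite to its neighbour Epb41l4a, had 35.0, 42.5 and 40.5 ppm in polysome Torin1, against 29.3, 31.9 and 38.9 ppm in polysome DMSO libraries. In both, the highest DMSO library lay within the Torin1 range, and the log2 folds were 0.29 ± 0.15 and 0.24 ± 0.12 (limma adjusted p = 0.247 and 0.236). Scaling to the column total alone moved the median of all genes to 0.23, and then 4 hosts, Snhg1 (0.61, adjusted p = 0.0333), Snhg6 (0.91, 0.0431), Snhg12 (0.56, 0.0295) and Epb41l4aos (0.51, 0.0211), were called higher, beside 14.4% of all genes higher. Under it 1110038B12Rik, Snhg8 and Snhg3 were still lower, at −0.58, −0.57 and −0.44, and Gas5 turned to 0.22.

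**Figure D2:**
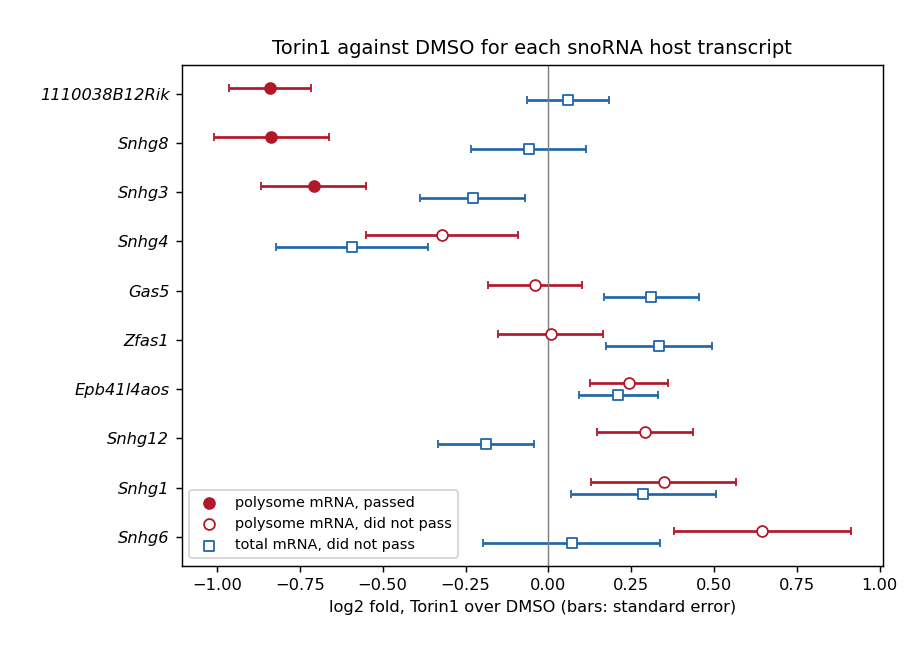
Log2 fold of Torin1 over DMSO for each host (rows) in polysome mRNA (red circles) and total mRNA (blue squares), with bars for the standard error of the limma fit. Filled circles passed an adjusted p of 0.05: 1110038B12Rik, Snhg8 and Snhg3 in polysome mRNA, at −0.84, −0.84 and −0.71.

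Change in polysome association is the log2 fold in polysome mRNA minus that in total mRNA, tested as an interaction. By this measure 1 host, 1110038B12Rik, fell and 0 rose, beside 0.707% of all genes tested (0.0148% higher and 0.692% lower). The difference was −0.90 ± 0.17 for 1110038B12Rik (SE, limma adjusted p = 0.0407), whose total level was 192, 176 and 173 ppm in Torin1, against 173, 163 and 184 ppm in DMSO libraries. That call stood close to the threshold: the value stayed between −1.07 and −0.79 without any single library, but the call was lost without 11 of the 12, with adjusted p up to 0.131, and kept only without polysome DMSO replicate 2 (0.000776).

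Snhg8 had a difference of −0.78 ± 0.25 and Snhg3 one of −0.48 ± 0.22, and neither passed (limma adjusted p = 0.465 and 0.881). Without polysome Torin1 replicate 3 the difference for Snhg8 was −0.98 and passed (adjusted p = 0.0381). For Gas5 it was −0.35 ± 0.20 and for Zfas1 −0.33 ± 0.23. Snhg12 and Snhg6 had positive values, 0.48 ± 0.21 and 0.58 ± 0.38. The median of the 10 hosts was −0.15, against 0.00 for all genes. An unadjusted limma p under 0.05 was found for 3 of the 10, beside 1155 of the 20240 genes tested.

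A ratio of 2 hosts within a library needs no scaling between libraries. 1110038B12Rik over Gas5, the most abundant host, was 0.904, 0.724 and 0.556 in polysome Torin1, against 1.26, 1.18 and 1.30 in polysome DMSO libraries. In total mRNA it was 0.634, 0.545 and 0.577 with Torin1, against 0.728, 0.667 and 0.693 with DMSO. The groups did not overlap in either fraction, and the gap was wider in polysome mRNA. The pair was chosen after these values were known, and the ratio shows an unequal change of these hosts, not which of them changed.

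**Figure D3:**
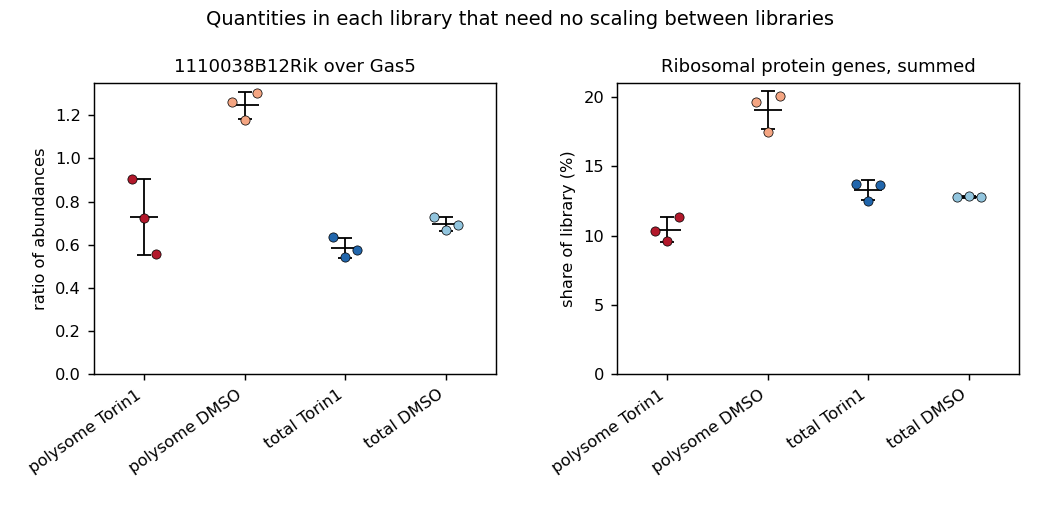
The ratio of 1110038B12Rik to Gas5 (left, no unit) and the summed share of 79 ribosomal protein genes in percent of the library (right) in each of the 12 libraries, with the mean and SD of 3 libraries per group. Both are lower in polysome Torin1 than in polysome DMSO without overlap, 0.556 to 0.904 against 1.18 to 1.30 for the ratio.

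Polysome mRNA against total mRNA shows how far each host was found in the gradient fractions collected as polysome mRNA, relative to other transcripts, in each condition. RNA with fewer ribosomes than in those fractions is not part of polysome mRNA, so a low value does not show RNA free of ribosomes. With Torin1, 0 hosts were higher in polysome than in total mRNA and 7 were lower, beside 39.8% of all genes tested (20.7% higher and 19.1% lower), with a median of −0.79 against −0.02 for all genes. The 7 were Gas5 (−1.35), 1110038B12Rik (−1.06), Epb41l4aos (−1.02), Snhg12 (−0.92), Snhg4 (−0.80), Zfas1 (−0.78) and Snhg8 (−0.47), with limma adjusted p of 1.5e-05, 3.05e-05, 3.19e-05, 0.000302, 0.0153, 0.00193 and 0.0479. The Snhg8 groups overlapped, and its call was lost without 5 of the 6 libraries taken 1 at a time. The Snhg4 call was lost without polysome Torin1 replicate 1 or 2. Snhg3 (0.21 ± 0.16), Snhg1 (−0.11 ± 0.22) and Snhg6 (−0.26 ± 0.27) did not pass.

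In DMSO, 1 host was higher in polysome mRNA and 6 were lower, beside 41.2% of all genes tested (21.8% higher and 19.3% lower), and the median of the hosts was −0.64, against 0.00 for all genes. Snhg3 was the one host enriched in polysomes, with a log2 fold of 0.69 ± 0.16 (SE, limma adjusted p = 0.00379). Every polysome DMSO library of Snhg3, 63.4 to 94.7 ppm, lay above every total DMSO library, 47.7 to 51.6 ppm. That call was lost with scaling to the column total, where the fold was 0.28 (adjusted p = 0.0723) and the median of all genes −0.37.

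Snhg12 was the most depleted from polysomes in DMSO, at −1.40 ± 0.15 (SE, limma adjusted p = 1.22e-05), with 31.8 to 49.3 ppm in polysome and 102 to 113 ppm in total libraries. Snhg4, Epb41l4aos and Gas5 were lower, at −1.07, −1.05 and −1.002 (limma adjusted p = 0.00249, 2.27e-05 and 0.000121). These are folds of 0.477 to 0.499 relative to the typical gene, and not shares of the molecules of a host. With scaling to the column total the log2 folds of these 3 were −1.48, −1.46 and −1.41. Snhg6 (−0.83, adjusted p = 0.0253) and Zfas1 (−0.45, adjusted p = 0.0405) were lower too, but lost the call without 3 and 5 of the 6 libraries, taken 1 at a time. Snhg8 (0.30 ± 0.17), 1110038B12Rik (−0.16 ± 0.12) and Snhg1 (−0.17 ± 0.22) did not pass. Scaling to the column total turned Snhg8 to −0.11 and brought 1110038B12Rik to −0.57 and Snhg1 to −0.59. Both 1110038B12Rik and Snhg1 then passed (limma adjusted p = 0.000844 and 0.0163), so that 8 hosts were called lower. Under that scaling the median of all genes was −0.37, and 8561 genes were called in either direction. The share of all genes called lower was not counted there, so the 8 hosts have no background to be read beside. The values in Torin1 and in DMSO come from different libraries, but a host called in one and not in the other is not thereby shown to differ: that difference is the interaction given above.

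**Figure D4:**
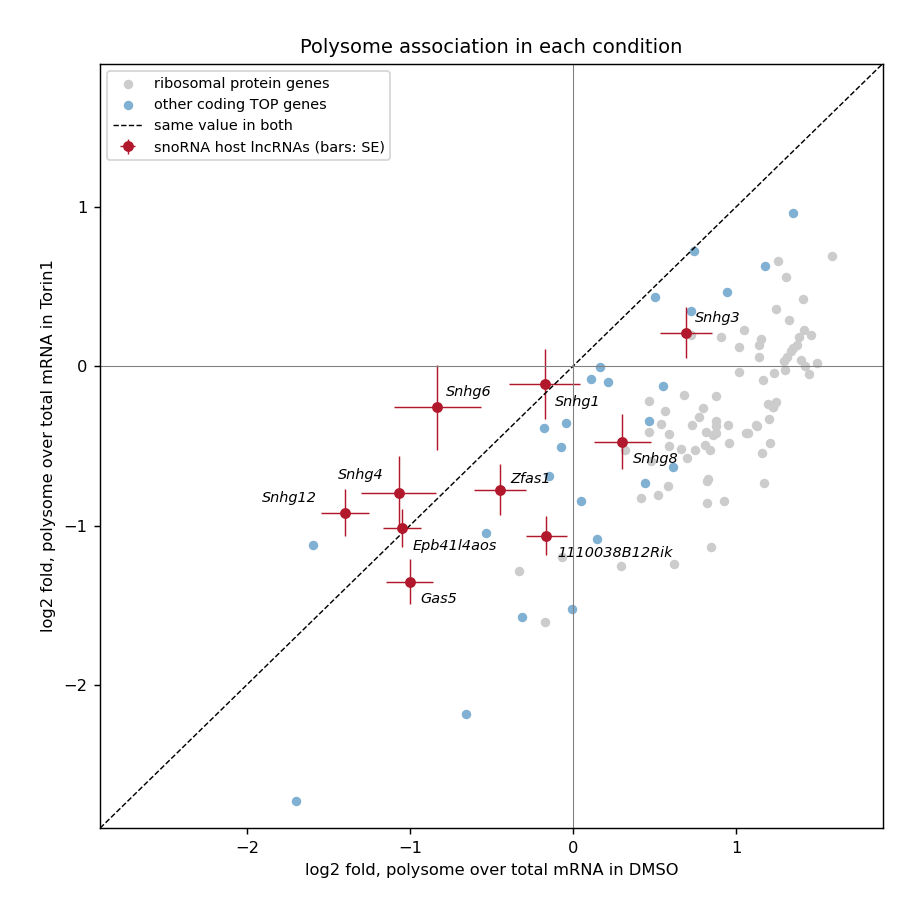
Log2 fold of polysome over total mRNA in DMSO (horizontal) and in Torin1 (vertical) for the 10 hosts (red, with SE), 79 ribosomal protein genes (grey) and 25 other coding TOP genes (blue), with a dashed line where both are equal. Most ribosomal protein genes lie right of 0 and below the line, whereas the hosts reach from −1.40 to 0.69 on the horizontal axis, with 1110038B12Rik at −1.06 in Torin1 and −0.16 in DMSO and Snhg3 at 0.21 in Torin1 and 0.69 in DMSO.

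Coding TOP genes give the contrast for which the noncoding hosts were chosen. Of 79 ribosomal protein genes, 0 rose and 78 fell in polysome mRNA with Torin1, with a median log2 fold of −1.18, and their summed share was 10.4% ± 0.888 of polysome Torin1 and 19.1% ± 1.39 of polysome DMSO libraries (SD, n = 3 each). Their total mRNA held a median of 0.09, with 0 genes called in either direction (limma, 2 at an unadjusted p under 0.05). By the interaction 64 of the 79 fell. The largest differences were those of Rps19 (−1.99 ± 0.20) and Rps27 (−1.91 ± 0.25), both proteins of the small subunit (limma adjusted p = 0.000559 and 0.00276).

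Of 25 other coding TOP genes, such as translation factors, 1 rose and 10 fell in polysome mRNA, with a median of −0.32, and 9 fell by the interaction. Ybx1, an RNA-binding protein, and Tpt1, the translationally controlled tumour protein, had the largest differences, −1.53 ± 0.23 and −1.52 ± 0.16 (limma adjusted p = 0.00704 and 0.000559). Against these counts stand 3 of the 10 hosts in polysome mRNA and 1 of the 10 by the interaction. The folds of the 3 fallen hosts, −0.84 to −0.71, lay within the range of the ribosomal protein genes, −1.83 to −0.55. The other 7 hosts, −0.32 to 0.65, lay above that range.

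Each host was compared with the summed level of the 79 ribosomal protein genes by scaling every library to that sum. This fit was chosen after the data had been seen. Of the 79 genes themselves, 21 rose and 24 fell in polysome mRNA in this fit, and 14 rose and 15 fell by the interaction. A call here is therefore against the sum and does not set a host apart from single ribosomal protein genes. Relative to that sum, all 10 hosts rose in polysome mRNA with Torin1, and so did 67.9% of all genes tested, so that count says nothing particular about the hosts. The median of the hosts was 1.12, against 1.03 for all genes. The smallest values were those of 1110038B12Rik (0.29 ± 0.12, limma adjusted p = 0.0407), Snhg8 (0.30 ± 0.12, 0.0403) and Snhg3 (0.42 ± 0.10, 0.00226). The largest was that of Snhg6 (1.77 ± 0.29, 0.000116). By the interaction 9 of the 10 hosts rose relative to the summed ribosomal protein genes, beside 61.7% of all genes higher. 1110038B12Rik was the exception, at 0.32 ± 0.17 (limma adjusted p = 0.11), and a p above the threshold does not show that it moved like them.

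**Figure D5:**
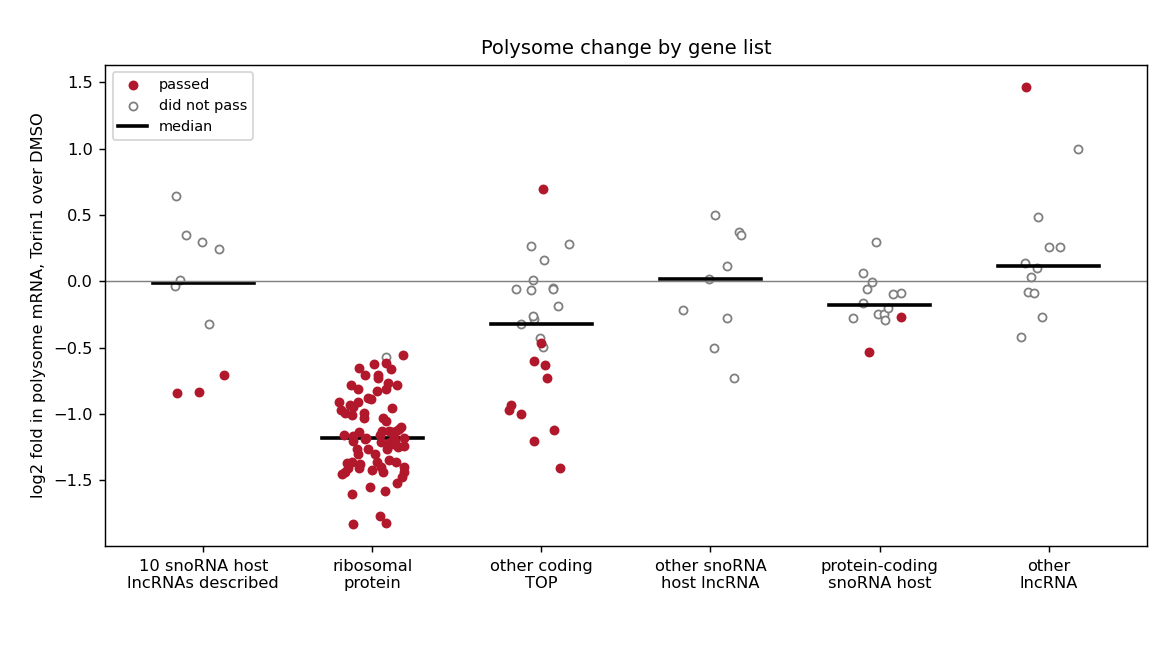
Log2 fold in polysome mRNA, Torin1 over DMSO (vertical), of each tested gene (points, filled where the adjusted p was under 0.05) in 6 gene lists, with bars for the medians. The median is −1.18 for ribosomal protein genes and −0.32 for other coding TOP genes, against −0.02 for the 10 hosts described and 0.02 for 9 other snoRNA host lncRNAs.

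Other snoRNA host lncRNAs did not move past the threshold: of 9 tested, 0 rose and 0 fell in polysome mRNA (median 0.02, 1 with an unadjusted limma p under 0.05). Of all 20240 genes tested, 4961 had such a p in polysome mRNA. The most abundant of these other hosts, Snhg5, stood at 0.02 ± 0.14. In DMSO, 1 of the 9 was higher and 2 were lower in polysome than in total mRNA, with a median of −0.56. Of 14 protein-coding snoRNA hosts, 0 rose and 2 fell in polysome mRNA (median −0.18), and Eif4a1, the most abundant, an RNA helicase of initiation, stood at −0.16 ± 0.10. Of 12 lncRNAs that host no snoRNA on this list, 1 rose and 0 fell (median 0.12), and 5 were lower and 1 higher in polysome than in total mRNA in DMSO. Pantr1, the most abundant of those, stood at −0.09 ± 0.22 with Torin1.

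Pathways that act on snoRNA hosts or on TOP transcripts gave these counts, to be read beside the 10.7% of all genes called in polysome mRNA (4.4% higher and 6.27% lower) and the 7.48% called in total mRNA. Of 16 genes for nonsense-mediated decay and the exon junction complex, 2 rose and 2 fell in polysome mRNA and 1 rose and 2 fell in total mRNA, and Magoh, a core protein of that complex, stood at −0.21 ± 0.16 in polysome mRNA. Of 15 genes for snoRNP proteins and their assembly, 0 rose and 3 fell in polysome mRNA (median −0.20) and 0 rose and 2 fell in total mRNA (median −0.20). Snu13, a protein that binds C/D box snoRNAs, was among those that fell in polysome mRNA, at −0.31 ± 0.08 (limma adjusted p = 0.0282). Of 12 regulators of TOP mRNAs and mTORC1, 0 rose and 2 fell in polysome mRNA and 0 rose and 1 fell in total mRNA, and Cnbp, a protein that binds TOP mRNAs, stood at −0.12 ± 0.09. By the interaction, 0 genes of these 3 lists passed in either direction, and 0 had an unadjusted limma p under 0.05.

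The snoRNAs themselves could not be followed. RefSeq places 31 snoRNA genes inside the spans of the 10 hosts, 15 of them rows of the table, and only Snora73b had a value above 0, in 1 library. What is measured is therefore the host transcript. Within the spans of the hosts lie parts of coding genes too: Zbtb37 overlaps Gas5, Znfx1 overlaps Zfas1 and Mcmdc2 overlaps Snhg6. The sources used here do not say whether counting used strand, so reads in a shared stretch cannot be assigned with certainty. None of these 3 passed in polysome mRNA, at −0.30 ± 0.24, −0.30 ± 0.17 and 0.02 ± 0.42 (limma adjusted p = 0.494, 0.322 and 0.998). In total DMSO mRNA they stood at 12.6, 7.94 and 0.624 ppm.

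Gas5 shares its start region with Zbtb37: of its 2 annotated starts, 1 lies head to head with that of Zbtb37, 317 bases away on the other strand, and 1 lies 248 bases past it. Zfas1 starts 81 bases past the annotated start of Znfx1 on the other strand, so that the ends of this pair overlap. For the 7 hosts held in the promoter table, no further start on the other strand was found within 2000 bases of a host start. Neighbours were searched in that table alone, which held 13025 of the 20240 genes tested, so a neighbour outside it would be missed. Snhg4, Snhg6 and Epb41l4aos have no start in that table, so they could not be searched. Snhg12 and Snhg3 lie on chromosome 4, at chr4:132308678-132311024 and chr4:132351933-132353686, on opposite strands, and they stood at opposite ends of the hosts' polysome association in DMSO, −1.40 and 0.69. Their folds with Torin1 in polysome mRNA also had opposite signs, 0.29 and −0.71, the first of which did not pass.

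Likeness of pattern was measured as the root mean square difference of log2 values over the 12 libraries, each gene centred on its own mean, among 9193 genes with a mean log2 ppm of at least 3. The genes most like Gas5 were Nol8 (0.114), Grm5 (0.121), Zfp386 (0.138), Mbnl1 (0.163) and Gria3 (0.167). All 5 were lower in polysome than in total DMSO libraries, with log2 folds of −1.31 to −0.86, beside −1.002 for Gas5. Among the hosts, Epb41l4aos was closest to Gas5 (0.225) and to Snhg12 (0.231), and Snhg3 was closest to Snhg8 (0.294). The closest pair of fallen hosts after that was Snhg8 and 1110038B12Rik (0.33). These values describe 12 libraries of unknown depth after a joint scaling, and no test was made on them.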

How the data were processed

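The 12 libraries of polysome and total mRNA took their groups from the sample titles. Per the submitters' processing notes, STAR 2.7.9a, HTSeq 0.6.0 and mm10 were used, without a stated role. The deposited table holds a signal per gene, never below 0, and the sources used here do not give its scaling by the authors. Its values are whole multiples of a fixed share of the column total (100% of them in each library, to within 0.011 in the table's unit). That step is one and the same for all genes while low values vary with gene length, as in rounded abundances per length, so the step is not 1 read and no counting interval is given. It has 0 other sample columns.

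Each column was divided by its total and by a trimmed mean of log ratios (trims 0.3 and 0.05). Values with a pseudocount of 1 on the log2 scale were fitted with limma 3.58.1 in R 4.3.3 (trend, 4 group means, 12 libraries), with Benjamini-Hochberg adjustment over 20240 genes and a threshold of 0.05. Fold changes of low genes are understated on that scale. p-values rest on the spread between the 3 libraries of a group. In this fit limma pools that spread over the 4 groups and draws it toward that of genes of similar level. The fit was tested on simulated data.

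The hosts and all gene lists were chosen with earlier results of these data known. Named genes are the 10 hosts, from each other list the 2 genes called with the largest interaction or else the most abundant, the 5 genes most like Gas5, and genes that overlap a host, of which 1 is not reported here. Among marker lists these are Fabp7, Tubb3, Cldn5, C1qb, Lum and Hba-a1. Start sites come from RefSeq, read with Python 3.11.15. Alternatives were scaling, pseudocount, filter, libraries fitted, a replicate block and libraries left out.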

Additional observations from a re-analysis of the deposited data

Results flagged for a closer look

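One result stood out because the effect of Torin1 differed between the 2 fractions by a test of that difference. For 1110038B12Rik, the log2 fold of Torin1 over DMSO was −0.84 ± 0.12 in polysome mRNA and 0.06 ± 0.12 in total mRNA, a difference of −0.90 ± 0.17 (SE, 3 libraries a group, limma interaction, adjusted p = 0.0407 over 20240 genes). The polysome Torin1 libraries lay below the polysome DMSO libraries in 3 of 3 cases, while the total libraries of both treatments overlapped. The call was lost when any 1 of 11 libraries was left out.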

How the results depend on the processing

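Of 880 values of single hosts under the alternatives, 780 kept direction and side of the threshold, 54 lost and 13 gained a call, and 33 changed sign, none of them called. Scaling to the column total called 841 genes in total mRNA and moved the hosts called higher in polysome mRNA to 4, those called lower by the interaction to 0 and those higher in polysome than total DMSO mRNA to 0. It turned Gas5 in polysome mRNA to 0.22 and Snhg8 in polysome against total DMSO mRNA to −0.11. With no filter on low values, 0 hosts passed by the interaction. With only the groups compared in the fit, 2 hosts rose, 2 fell and 2700 genes were called in total mRNA, and 739 genes were called in polysome mRNA. The cause of these changes was not tested.

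Same-numbered polysome and total libraries of a treatment correlated at −0.10 to 0.08 in their deviations, and 2 of 6 libraries were most like their own number, so the numbers were not shown to pair libraries. With a replicate block by number 148 genes were called by the interaction, and by culture 92, and 1 host in both. Both blocks ended the Snhg8 call in polysome against total Torin1 mRNA (adjusted p = 0.0529 by number and 0.0644 by culture), and so left 6 hosts lower there.

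Leaving out 1 library or 1 replicate number gave 144 to 885 genes in total mRNA, 542 to 2894 in polysome mRNA and 0 to 232 by the interaction. Hosts called lower ran from 1 to 4 in polysome mRNA and from 0 to 1 by the interaction, and hosts higher in polysome than total mRNA from 0 to 1 in DMSO and from 0 to 1 in Torin1. Uncalled values that changed sign ran from −0.32 to 0.30 for Snhg6 and −0.15 to 0.026 for Snhg8 in total mRNA, and from −0.21 to 0.13 for Gas5 and −0.23 to 0.22 for Zfas1 in polysome mRNA. By the interaction they ran from −0.29 to 0.42 for Snhg1, −0.075 to 0.47 for Snhg4, −0.0048 to 1.04 for Snhg6 and −0.18 to 0.25 for Epb41l4aos. In polysome against total mRNA they ran from −0.28 to 0.0098 for 1110038B12Rik in DMSO and from −0.46 to 0.14 for Snhg1 in Torin1.

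With a window of 5 bases the share of hosts with a start run was 71.4% again. Depth is unknown, so how far it limits the least abundant hosts, Snhg4 and Snhg6, was not measured.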

Other observations

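Markers of other cells gave values that belong to no comparison of the hosts. Cldn5, an endothelial tight junction gene, was higher with Torin1 in polysome mRNA (0.60 ± 0.15, limma adjusted p = 0.028) and in total mRNA (0.61 ± 0.15, 0.0338), at a low level of 8.40 ppm in total Torin1 and 5.47 ppm in total DMSO libraries. It was the 1 of 4 endothelial markers that passed in each fraction. The log2 folds of that list ran from −0.14 to 0.65 in polysome mRNA and from 0.12 to 0.61 in total mRNA. Col1a1, a collagen of meningeal and mural cells, was higher too (1.03 ± 0.14 in polysome mRNA, 0.000653, and 1.11 ± 0.14 in total mRNA, 0.000783). Of the 4 meningeal and mural markers, 2 passed in each fraction, with medians of 0.65 in polysome and 0.60 in total mRNA. Their log2 folds ran from −0.22 to 1.05 in polysome mRNA and from −0.16 to 1.11 in total mRNA. Of the 8 progenitor markers, 4 passed as higher in polysome mRNA, among them Hes5 (0.62 ± 0.13, 0.0122), Hes1 (0.51 ± 0.10, 0.00797) and Sox2 (0.23 ± 0.06, 0.0222), transcription factors of progenitors, whereas the most abundant, Fabp7, stood at −0.25 ± 0.21. Col1a1, Hes5, Hes1 and Sox2 were named after their values were seen. Of 6 neuron, 4 microglia and 4 red cell markers, 0 passed in either fraction (limma, unadjusted p under 0.05 in polysome mRNA for 2, 1 and 1), and the most abundant of these lists stood at −0.14 ± 0.08 for Tubb3, 0.36 ± 0.28 for C1qb and 0.25 ± 0.09 for Hba-a1 in polysome mRNA. Lum, the most abundant meningeal marker, stood at 0.27 ± 0.21. Neat1, a nuclear lncRNA, was the 1 lncRNA without a hosted snoRNA that rose in polysome mRNA, at 1.47 ± 0.42 (limma adjusted p = 0.0441), from a level under 1 ppm in DMSO. It rose in total mRNA as well, at 2.07 (adjusted p = 0.0121).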
